A study of Mus musculus with 15 samples.

Results

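The 9 genes described here, of 19937 genes measured, encode secreted ligands of the immune system: the cytokines Il6, Tslp, Il4, Il13, Il1b, Il18, Tnf and Csf1 and the chemokine Ccl9. They were picked by name, and each had 1 probe set with its symbol alone. Il6, Tslp and Ccl9 were picked because their levels changed in mutant cells, so their differences from controls and between stages are given as a description, with no p-value, and the other 6 genes were tested. Expression was measured on Mouse Gene 1.0 ST arrays in progenitors sorted from the bone marrow of female C57BL/6 mice, 3 weeks after conditional knockout of Cebpa, which encodes the myeloid transcription factor C/EBPα, in a study of cells that precede leukaemia. There were 5 groups of 3 arrays, each array from 1 mouse. Granulocyte-macrophage progenitors (GMPs; Lin-, Sca1-, cKit+, CD150-, CD41-, FcgRII+) came from cebpa fl/p30; Mx1Cre mice, from cebpa fl/BRM2; Mx1Cre mice and from cebpa fl/+; Mx1Cre controls. Their precursors, the preGMs (with the same surface profile but FcgRII- and Endoglin-), came from cebpa fl/p30; Mx1Cre mice and from controls labelled cebpa +/+:Mx1Ce. The p30 allele yields the short C/EBPα isoform without the N-terminal activation region, and BRM2 is a mutant of the basic region that is impaired in restraining E2F factors. All groups, controls included, carried the Mx1 promoter-driven Cre, which interferon switches on and which is active in many cells besides the sorted ones. The controls of the 2 stages differ in genotype, and the fl/p30 GMPs and preGMs came from the same 3 mice, with replicate numbers 1 to 3 marking the mice.

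Cytokines are made by one cell and read by another, or by the same one, through receptors that share signalling chains. IL-6 binds its own receptor chain together with gp130 (Il6st) and signals through STAT3; it is a product of macrophages, mast cells and stromal cells, and it acts on marrow progenitors in emergency myelopoiesis. TSLP, an epithelial cytokine that acts on dendritic and innate cells, binds Crlf2 with the IL-7 receptor chain. IL-4 and IL-13 are the ligands of type 2 immunity. IL-1β and IL-18 are released after cleavage by caspase-1, TNF after cleavage by ADAM17, and M-CSF (Csf1) and its receptor direct monocytic development. CCL9 is a mouse chemokine made by myeloid cells and read by CCR1.

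Il6 was high in mutant GMPs and Ccl9 in all groups, controls included, and their start-site regions are shown first. Both run from 250 bases before to 50 bases after the RefSeq transcript start (assembly GRCm38.p6), 5′ to 3′ on the gene's strand, and capitals mark every match to 4 motifs searched on both strands: TTGCNNAA, a C/EBP core; CCAAT; GGNNTTTCC, an NF-κB type site; and TGANTCA, an AP-1 type site.
Il6, chr5:30012864-30013163, plus strand: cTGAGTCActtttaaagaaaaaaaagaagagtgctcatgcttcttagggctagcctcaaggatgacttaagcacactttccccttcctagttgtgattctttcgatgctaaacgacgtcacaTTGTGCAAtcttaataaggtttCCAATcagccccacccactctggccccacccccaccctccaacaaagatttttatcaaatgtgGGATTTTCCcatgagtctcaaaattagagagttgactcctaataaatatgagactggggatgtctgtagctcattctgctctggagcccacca
Ccl9, chr11:83578587-83578886, minus strand: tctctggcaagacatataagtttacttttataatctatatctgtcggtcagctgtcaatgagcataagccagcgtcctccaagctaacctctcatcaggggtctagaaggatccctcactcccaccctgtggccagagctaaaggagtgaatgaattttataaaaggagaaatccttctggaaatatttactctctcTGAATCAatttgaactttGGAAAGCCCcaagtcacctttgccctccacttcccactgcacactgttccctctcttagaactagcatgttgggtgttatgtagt
The Il6 window held 1 match to each of the 4 motifs. Counted from the start site, TGANTCA lay at -249 to -243, TTGCNNAA on the opposite strand at -128 to -121, CCAAT at -106 to -102 and GGNNTTTCC at -43 to -35, with no overlap between them. All 4 were present in 5 of the 32851 RefSeq mouse windows of this length (0.0152%), while TTGCNNAA alone was in 10.8%, CCAAT in 37.4%, GGNNTTTCC in 5.82% and TGANTCA in 7.81%. The Il6 window is among the 5. The motifs were picked by name and not at random, so this share does not measure how unusual the Il6 window is. Whether the count of 5 differs from what the single shares would give together was not tested. The Ccl9 window held TGANTCA at -53 to -47 and GGNNTTTCC on the opposite strand at -35 to -27. The search covered 8 of the 9 genes, with Tslp left out, and 9 windows in all because Il4 had 2. Of these 9, TTGCNNAA was in 2, CCAAT in 3, GGNNTTTCC in 4 and TGANTCA in 2. A match is a stretch of letters and not a measured binding site.

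The deposited values are log2 expression, and the median over all probe sets of an array lay between 6.03 and 6.23. Where the lower group of a pair lay below that range, near background, no fold is given. Of the 8 GMP marker genes chosen for the check of the gate (among them Mpo, Elane, Prtn3 and Kit), 7 were above the array median on every GMP fl/p30 and every GMP fl/BRM2 array, and 8 were on every GMP fl/+ array. In preGM +/+ 8 were above it on every array as well, and in preGM fl/p30 6, so this count does not tell GMPs from preGMs. GMP fl/+ replicates 2 and 3 stood apart from replicate 1. Their medians were 6.21 and 6.23 against 6.03, and 51 small nucleolar RNA genes lay on average 0.84 and 1.23 above their means over the 15 arrays, against -0.42 in replicate 1; this set was picked with the values in view. GMP fl/p30 replicate 1 lay furthest on the other side, at -1.25, and it also had the highest Il6 value. Without that array 537 genes passed in GMP fl/p30 against GMP fl/+, against 1209 with it. Leaving out GMP fl/p30 replicate 2 or 3 gave 600 or 1534. Leaving out GMP fl/+ replicate 1, 2 or 3 gave 3078, 702 or 743.

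**Figure D1:**
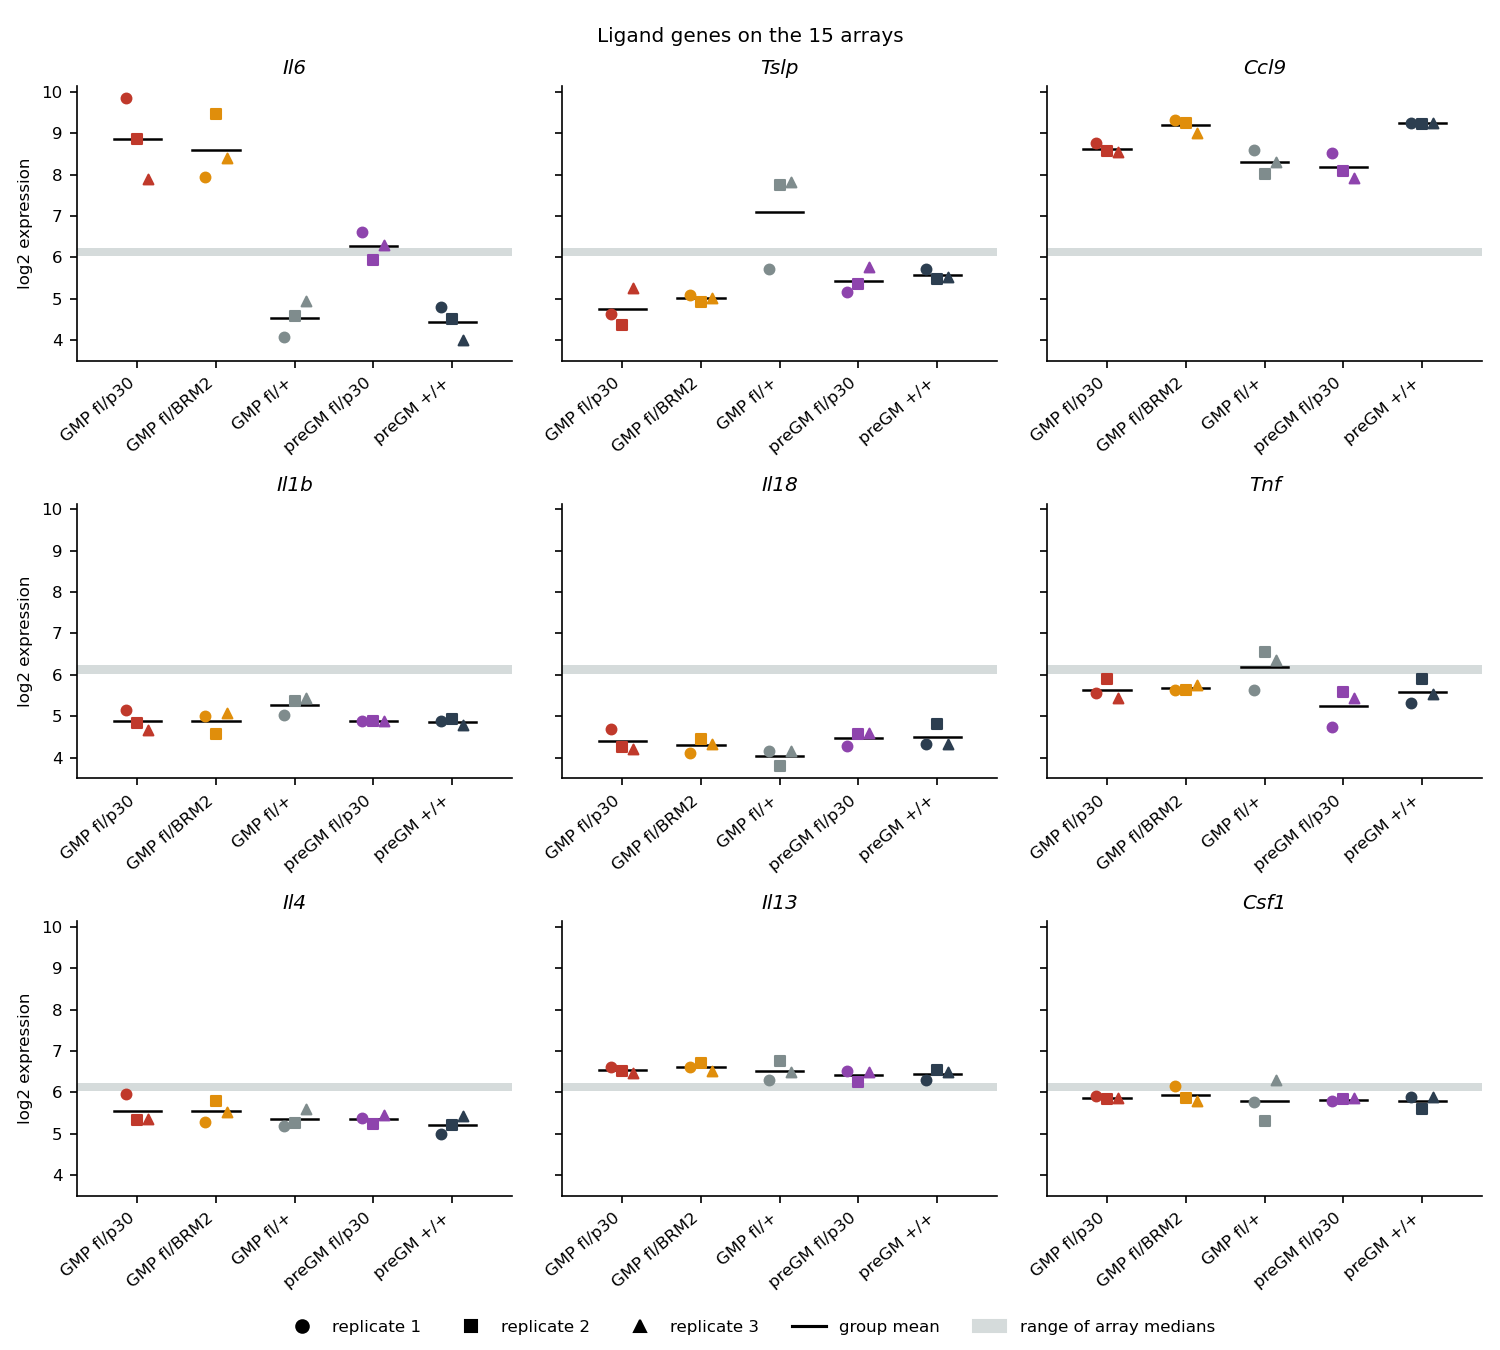
Log2 expression (vertical axis) of the 9 ligand genes in each group (horizontal axis); each point is 1 array, the bar is the group mean and the grey band is the range of the array medians, 6.03 to 6.23. Il6 is high in both GMP mutants and intermediate in preGM fl/p30, Tslp is high on 2 GMP fl/+ arrays, Ccl9 is above the band on all arrays, and Il4, Il1b and Il18 are below it.

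Il6 was high in mutant progenitors and near background in the controls. It had log2 values of 9.84, 8.86 and 7.89 in GMP fl/p30 and of 7.94, 9.46 and 8.39 in GMP fl/BRM2, against 4.07, 4.58 and 4.94 in GMP fl/+. In preGMs it had 6.60, 5.94 and 6.31 in fl/p30, against 4.79, 4.5 and 4.01 in +/+. Every mutant array was above every control array. The difference from GMP fl/+ was 4.33 ± 0.44 (log2, SE) for fl/p30 and 4.07 ± 0.44 for fl/BRM2, the third largest of all genes in each comparison. Il6 was picked for its change, so this rank is a description only. Without GMP fl/p30 replicate 1 the difference for fl/p30 was 3.84. In preGMs the difference from the control was 1.85 ± 0.44, so the p30 difference was larger at the GMP stage by 2.48 ± 0.63. Stage and control genotype cannot be told apart in this gap, because the controls were fl/+ in GMPs and +/+ in preGMs. The order of group means was GMP fl/p30, GMP fl/BRM2, preGM fl/p30, GMP fl/+ and preGM +/+; the first and the second overlapped, as did the last pair, and both control groups were below the array medians on all 6 arrays. In sorted bulk cells, a few cells with much Il6 RNA and many cells with a little cannot be told apart.

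Genes of mast cells and basophils, which are among the cells known to make IL-6, moved in both directions. Of 11 such genes, 3 rose and 3 fell in GMP fl/p30 against GMP fl/+ (adjusted p under 0.05; 4.69% of all genes rose and 1.37% fell). In GMP fl/BRM2 against GMP fl/+, 3 rose and 2 fell (1.89% and 0.642% of all genes), and in preGM fl/p30 against +/+ 1 rose and 1 fell (0.647% and 1.03%). Cpa3, the mast cell carboxypeptidase gene, had 11.9, 11.5 and 11.2 in GMP fl/p30 and 11.1, 11.6 and 11.6 in GMP fl/BRM2, against 9.13, 7.35 and 8.85 in GMP fl/+. It had 12.1, 11.6 and 11.8 in preGM fl/p30, against 9.40, 9.17 and 9.28 in preGM +/+. Cma1, a mast cell chymase gene, and Gata2, a transcription factor gene, were the other risers in both GMP mutants. Hdc, the gene of the enzyme that makes histamine, had 6.65, 7.25 and 8.74 in GMP fl/p30 and 8.05, 7.61 and 7.92 in GMP fl/BRM2, against 9.92, 9.89 and 9.46 in GMP fl/+. It had 5.61, 5.95 and 5.81 in preGM fl/p30, against 8.23, 7.80 and 7.90 in preGM +/+, and so fell in all 3 comparisons, where Cpa3 rose. The basophil protease gene Prss34 fell in both GMP mutants, and Mcpt8, another, fell in GMP fl/p30, with 8.83, 8.66 and 9.45 against 10.2, 9.94 and 10.5 in GMP fl/+. The mean of the 11 genes, which pools both directions, lay between 7.32 and 7.61 in GMP fl/p30 and 7.42 and 7.69 in GMP fl/BRM2, against 6.97 to 7.29 in GMP fl/+. In preGMs it lay between 6.58 and 6.87 in fl/p30, against 6.59 to 6.75 in +/+. What part such genes have in the Il6 difference was not tested.

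Tslp was high only on 2 arrays of the GMP control. It had 4.63, 4.37 and 5.25 in GMP fl/p30 and 5.08, 4.91 and 5.03 in GMP fl/BRM2, against 5.73, 7.75 and 7.83 in GMP fl/+. In preGMs it had 5.17, 5.35 and 5.76 in fl/p30, against 5.72, 5.47 and 5.54 in +/+. The GMP groups did not overlap between mutants and control, and the preGM groups did. The differences from GMP fl/+ were -2.35 ± 0.41 for fl/p30 and -2.10 ± 0.41 for fl/BRM2, and in preGMs the difference was -0.15 ± 0.41. Their size depends on GMP fl/+ replicates 2 and 3, the arrays with the higher medians and small nucleolar RNA values given above. Against replicate 1 alone the differences were -0.98 and -0.72, and without it -3.04 and -2.78. What part the unlike control arrays have in the Tslp difference was not tested.

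Ccl9 stood well above the array medians on every array and differed by allele and stage. It had 8.76, 8.58 and 8.54 in GMP fl/p30 and 9.32, 9.26 and 9.01 in GMP fl/BRM2, against 8.61, 8.01 and 8.30 in GMP fl/+. The fl/BRM2 arrays were all above the control arrays (0.89 ± 0.17, 1.86-fold), and the fl/p30 arrays overlapped them (0.32 ± 0.17; 0.02 against GMP fl/+ replicate 1 alone). In preGMs it was the other way round, with 8.52, 8.09 and 7.91 in fl/p30, against 9.26, 9.23 and 9.25 in +/+. All fl/p30 preGM arrays were below the controls, with a difference of -1.07 ± 0.17 (2.10-fold lower). The p30 difference at the 2 stages was thus unlike by 1.39 ± 0.23, with controls that also differed in genotype. The order of means was preGM +/+, GMP fl/BRM2, GMP fl/p30, GMP fl/+ and preGM fl/p30, with a gap between the arrays of GMP fl/BRM2 and those of GMP fl/p30 and overlap between all other neighbours.

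**Figure D2:**
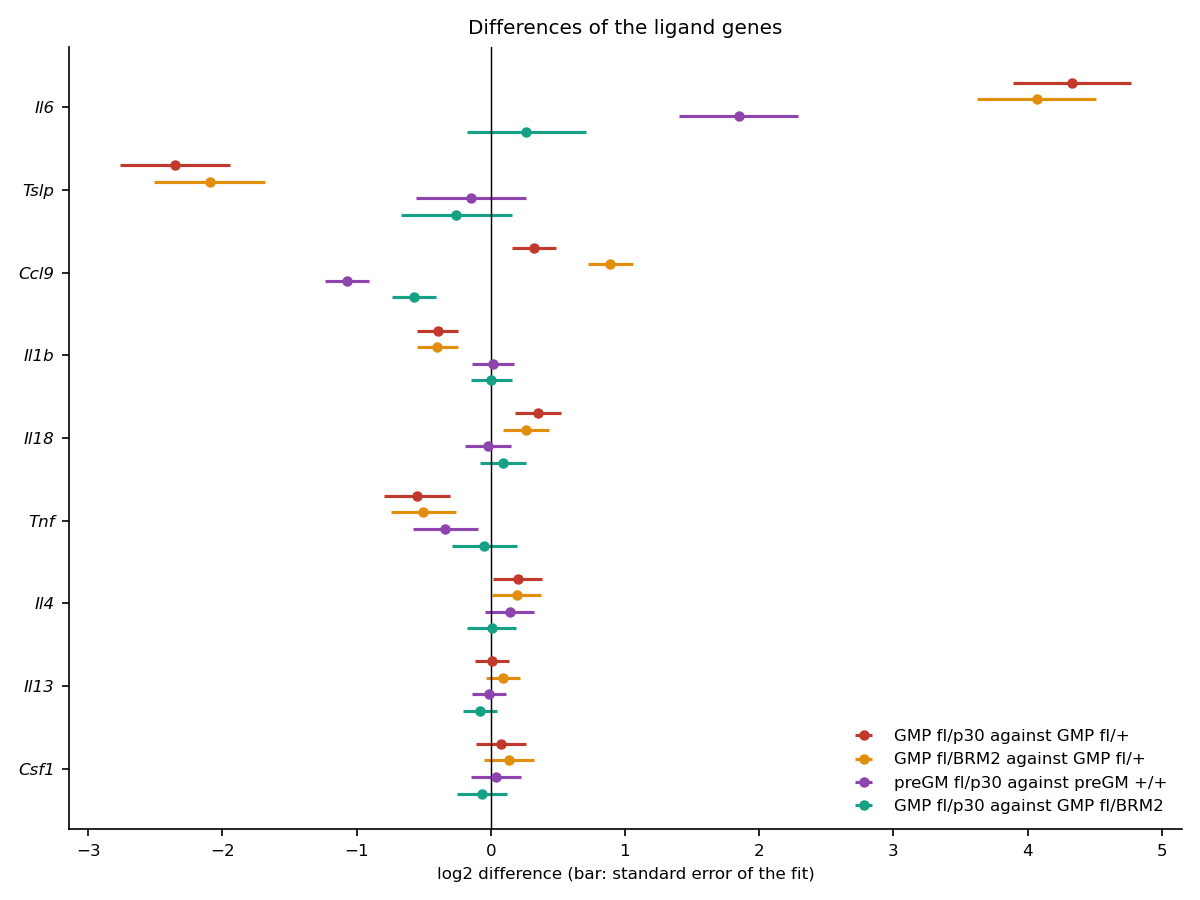
Log2 differences (horizontal axis) of the 9 ligand genes (vertical axis) in the 3 comparisons of mutant with control cells and between the 2 GMP mutants; points are differences of group means of 3 arrays each, and bars are 1 standard error of the fit. Il6 lies at 4.33 and 4.07 in mutant GMPs, Tslp at -2.35 and -2.10, and Ccl9 to the right of 0 in GMP fl/BRM2 and to the left in preGM fl/p30.

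None of the other 6 genes passed the test in any comparison. In GMP fl/p30 against GMP fl/+, 0 of 6 passed at an adjusted p under 0.05 in limma, where 6.06% of all genes did, and 2 had an unadjusted p under 0.05 (20% of all genes). For GMP fl/BRM2 against GMP fl/+ the counts were 0 of 6 (2.53% of all genes) and 1 (15%). For preGM fl/p30 against +/+ they were 0 of 6 (1.68%) and 0 (14%). The lowest adjusted p was 0.160, 0.226 and 0.573 in these comparisons. Of these 6 genes, 1, 0 and 0 had mutant arrays that did not overlap the control arrays. Over all genes the shares were 17.4%, 15.2% and 25.1%. With Il6, Tslp and Ccl9, which were picked for their changes, the counts over all 9 genes were 3, 3 and 2. The genes without overlap were Il6 throughout, Tslp in both GMP comparisons, Il18 in GMP fl/p30, and Ccl9 in GMP fl/BRM2 and preGM fl/p30.

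Among the inflammasome-dependent ligands and Tnf, the fl/+ GMPs had the highest means of Il1b and Tnf and the lowest of Il18. Tnf, a main inflammatory cytokine, had 5.56, 5.90 and 5.44 in GMP fl/p30 and 5.64, 5.64 and 5.75 in GMP fl/BRM2, against 5.64, 6.55 and 6.35 in GMP fl/+. The differences of -0.55 ± 0.24 (adjusted p = 0.223) and -0.50 ± 0.24 (adjusted p = 0.359) did not pass, and the control arrays that were high were replicates 2 and 3, as for Tslp. Without replicate 1, Tnf passed in both comparisons (-0.82, adjusted p = 0.0254, and -0.77, adjusted p = 0.0434), while against replicate 1 alone the differences were -0.01 and 0.04. In preGMs Tnf had 4.75, 5.57 and 5.43 in fl/p30, against 5.32, 5.90 and 5.54 in +/+, which overlap. Il1b, the gene of IL-1β, had 5.16, 4.84 and 4.65 in GMP fl/p30 and 4.99, 4.57 and 5.07 in GMP fl/BRM2, against 5.04, 5.36 and 5.43 in GMP fl/+. Its differences were -0.39 ± 0.15 (adjusted p = 0.160) and -0.40 ± 0.15 (adjusted p = 0.226), with overlap in both, and without GMP fl/+ replicate 1 the value in fl/p30 was -0.51 and passed (adjusted p = 0.0434), while against replicate 1 alone the differences were -0.15 and -0.16. Its preGM groups lay together, with 4.89, 4.87 and 4.88 in fl/p30, against 4.89, 4.93 and 4.78 in +/+. Il18 had 4.70, 4.26 and 4.21 in GMP fl/p30 and 4.10, 4.46 and 4.34 in GMP fl/BRM2, against 4.16, 3.80 and 4.15 in GMP fl/+. The difference of 0.35 ± 0.17 in fl/p30 did not pass (adjusted p = 0.275), although the arrays did not overlap. Il1b and Il18 were below the array median on all 15 arrays, so their RNA may not have been measurable above background.

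Il13 and Csf1 varied little between groups, and Il4 about as much as the typical gene. Csf1 ranged from 5.84 to 5.91 in GMP fl/p30 and from 5.79 to 6.16 in GMP fl/BRM2, against 5.32 to 6.29 in GMP fl/+. Its 5 group means spanned 0.15, a span that only 7.11% of genes fell below, where the median span of all genes was 0.35. Il13 ranged from 6.26 to 6.76 over the 15 arrays, above the array median on each, and its group means spanned 0.19 (14.3% of genes had a smaller span). Il4, its neighbour on chromosome 11, ranged from 5.0 to 5.95, below the array median on each, and its group means spanned 0.33 (45.3% of genes had a smaller span). Over the 3 mutant comparisons, the 95% intervals of the differences from controls reached from -0.25 to 0.59 for Il4, from -0.29 to 0.36 for Il13 and from -0.36 to 0.54 for Csf1.

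Between the 2 mutant alleles in GMPs, 0 of the 6 tested genes passed in GMP fl/p30 against GMP fl/BRM2 (limma; 1 of 19937 genes did, 0.00502%), and 0 had an unadjusted p under 0.05, where 3.45% of all genes had. Il6, Tslp and Ccl9 are again described only. Ccl9 was lower in fl/p30 than in fl/BRM2, with a difference of -0.57 ± 0.17 (1.49-fold), and was the only one of the 9 whose arrays did not overlap (8.33% of all genes). Il6 differed by 0.26 ± 0.44 and Tslp by -0.26 ± 0.41, with overlapping arrays.

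Between the stages, Il6 was higher in GMPs than in preGMs of fl/p30 mice, and the control groups overlapped. The mouse of replicate 1 had 9.84 in GMPs and 6.60 in preGMs, that of replicate 2 had 8.86 in GMPs and 5.94 in preGMs, and that of replicate 3 had 7.89 in GMPs and 6.31 in preGMs. Each of the 3 mice was thus higher at the GMP stage, by 3.23, 2.92 and 1.58, and the fitted difference was 2.58 ± 0.44 (5.97-fold). In the controls the GMP minus preGM difference was 0.09 ± 0.44. Stage and genotype cannot be told apart in this control step, because the GMP controls were fl/+ and the preGM controls +/+. The same holds for the stage dependence of the p30 difference, which uses both control groups. Ccl9 was higher in GMPs than in preGMs of each fl/p30 mouse, by 0.24, 0.48 and 0.62, while in controls GMPs were below preGMs, with a difference of -0.94 ± 0.17 (1.92-fold). Tslp was lower in GMPs of each fl/p30 mouse (-0.54, -0.97 and -0.51), and higher in control GMPs by 1.53 ± 0.41. Of the 6 tested genes, 0 passed for the step in fl/p30 mice, where 0.642% of all genes did (0.356% higher in GMPs and 0.286% lower), and 0 for that in controls, where 10.2% did (4.19% higher and 6.02% lower). The arrays of the 2 stages did not overlap for Il6 and Ccl9 in fl/p30 mice and for Tslp and Ccl9 in controls. These genes were picked for their changes in mutant cells. Of the 6 tested genes, the arrays did not overlap for 0 in fl/p30 mice (17.2% of all genes). In controls they did not overlap for 2 of the 6 (34% of all genes), Il1b and Il18. With an unadjusted p under 0.05 there were 0 in fl/p30 mice (12.4% of all genes), and 3 in controls (31.7%): Il1b (0.41, adjusted p = 0.0924), Il18 (-0.46, adjusted p = 0.0945) and Tnf (0.59, adjusted p = 0.119). The stage dependence of the p30 difference passed for 0 of the 6 (0.00502% of all genes), and 0 had an unadjusted p under 0.05 (13.1%).

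**Figure D3:**
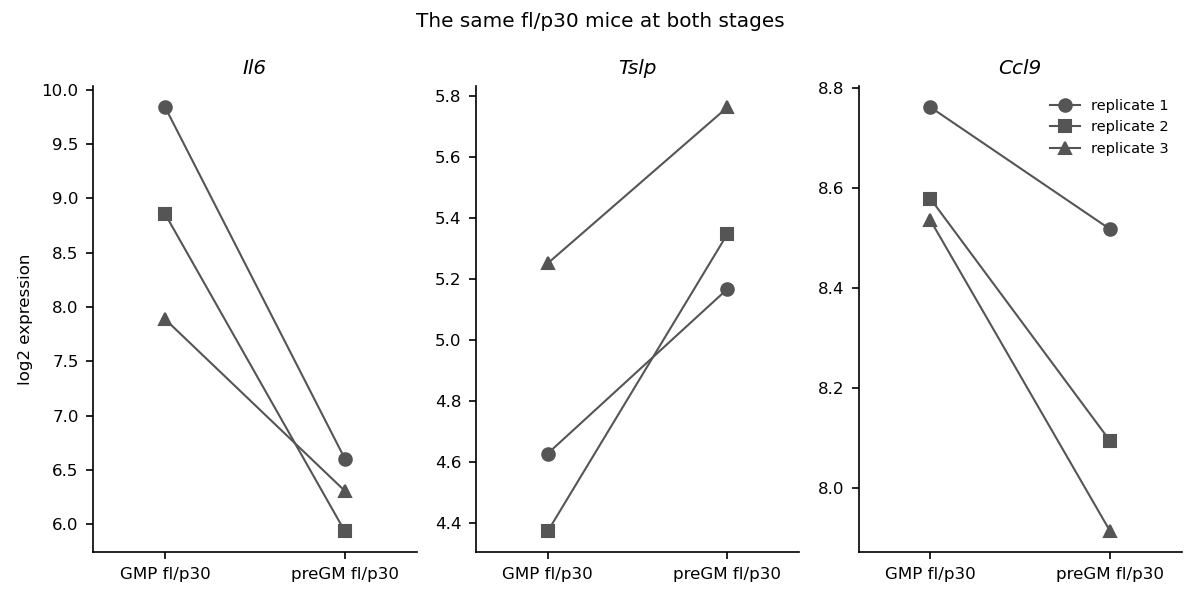
Log2 expression (vertical axis) of Il6, Tslp and Ccl9 in GMPs (left) and preGMs (right) of the 3 cebpa fl/p30; Mx1Cre mice; each line joins the 2 arrays of 1 mouse, and the vertical scales differ. In all 3 mice Il6 and Ccl9 are higher in GMPs than in preGMs and Tslp is lower.

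Both receptor chains for IL-6 fell in all 3 mutant comparisons. Of the 15 receptor genes listed, 13 were measured (Il2rg and Il1r1 had no probe set of their own), and in GMP fl/p30 against GMP fl/+ 3 rose and 2 fell (4.69% and 1.37% of all genes), with a median difference of -0.09 over the 13, against -0.04 over all genes. Il6st, the gene of gp130, had 6.82, 7.57 and 7.78 in GMP fl/p30 and 8.22, 7.73 and 8.18 in GMP fl/BRM2, against 9.28, 10.1 and 8.68 in GMP fl/+. In preGMs it had 8.14, 8.47 and 8.12 in fl/p30, against 10.4, 10.3 and 10.2 in +/+. It was thus lower on every mutant array, 3.90-fold in GMP fl/p30 (-1.96 ± 0.30, adjusted p = 0.00146), 2.49-fold in GMP fl/BRM2 (-1.31, adjusted p = 0.0322) and 4.23-fold in preGM fl/p30 (-2.08, adjusted p = 0.00301). Il6ra, the ligand-binding chain, fell 1.47-fold in GMP fl/p30 (-0.55, adjusted p = 0.0265), 1.56-fold in GMP fl/BRM2 (-0.64, adjusted p = 0.0218) and 2.21-fold in preGM fl/p30 (-1.14, adjusted p = 0.000746). In preGMs both calls held in all 15 fits that leave out an array, and in GMP fl/p30 that of Il6st did. When arrays were shifted to a common median, the Il6ra calls in both GMP mutants were lost. When only the groups compared were fitted, the GMP calls of Il6ra and of Il6st were all lost. The Il6ra call was lost without GMP fl/+ replicate 3, without GMP fl/p30 replicate 1 or 2 (highest adjusted p 0.123) or without GMP fl/BRM2 replicate 2 or 3 in that group's comparison (up to 0.139), and the Il6st call in GMP fl/BRM2 without its replicate 2 or 3, GMP fl/+ replicate 2 or preGM +/+ replicate 3 (up to 0.190).

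Among the other receptors, Ccr1, which CCL9 binds, rose in both GMP mutants. It had 7.10, 6.18 and 5.76 in GMP fl/p30 and 6.30, 6.56 and 6.08 in GMP fl/BRM2, against 4.52, 4.55 and 5.12 in GMP fl/+ (1.62, adjusted p = 0.0077, and 1.59, adjusted p = 0.0168; the second was lost without GMP fl/BRM2 replicate 2 or GMP fl/+ replicate 2, highest adjusted p 0.109). Il18r1, the IL-18 receptor chain, rose in fl/p30 cells of both stages, by 1.5 in GMPs (adjusted p = 0.00324) and by 1.17 in preGMs (2.24-fold, adjusted p = 0.035, lost in 5 of the 15 fits that leave out an array and with the replicate number as a block). Il7r, which the IL-7 and TSLP receptors share, rose in GMP fl/p30 by 1.34 (adjusted p = 0.00961), with 6.4, 6.05 and 6.05 against 4.64, 4.94 and 4.88 in GMP fl/+; the call was lost without GMP fl/p30 replicate 1 (adjusted p = 0.052). In preGM fl/p30 it lay at -0.70 and did not pass (adjusted p = 0.269). Among the preGM +/+ arrays, Il7r was highest on replicate 3, the array with their highest B cell gene mean. Its partner Crlf2 did not pass in any comparison and differed by -0.11, -0.15 and -0.18 in the 3 mutant comparisons. Csf1r, the M-CSF receptor, fell 4.13-fold in preGM fl/p30 (-2.04, adjusted p = 0.0394), a call lost in 9 of the 15 fits that leave out an array. It was also lost with arrays shifted to a common median, with trend and robust eBayes, and with the replicate number as a block. In the GMP mutants Csf1r stood at -1.17 and -1.33 without passing. In all, 1 receptor rose and 2 fell in GMP fl/BRM2 (1.89% and 0.642% of all genes), and 1 rose and 3 fell in preGM fl/p30 (0.647% and 1.03%). None passed between the 2 GMP mutants.

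**Figure D4:**
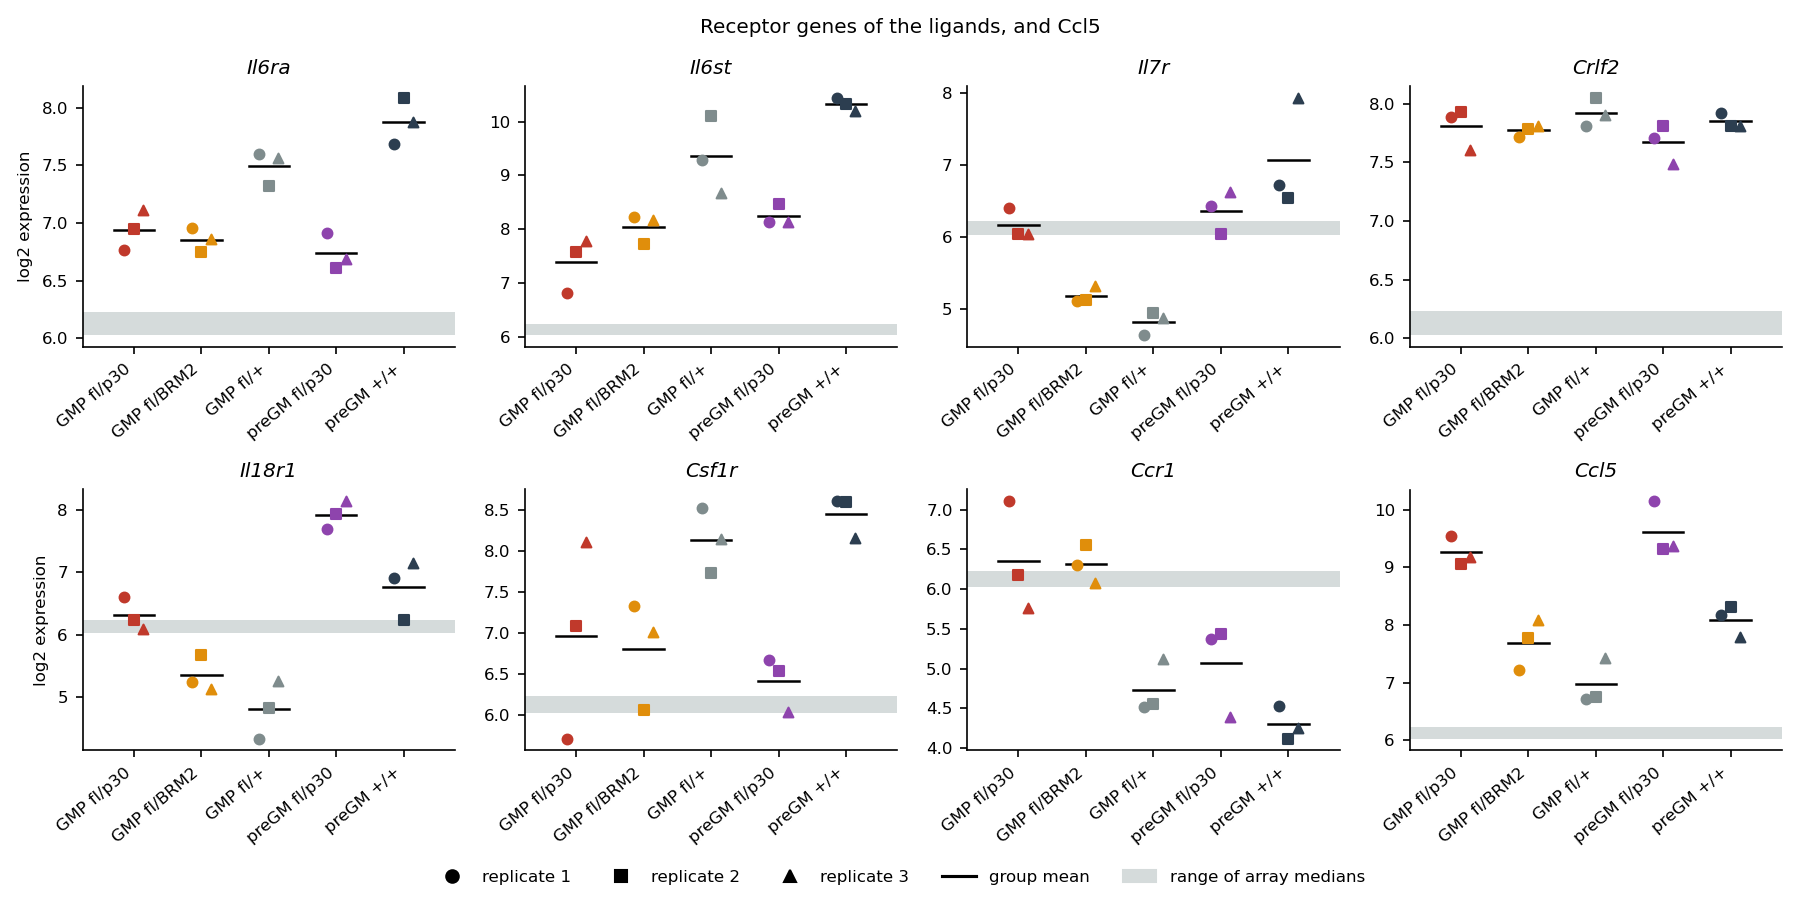
Log2 expression (vertical axes, which differ in scale) of 7 receptor genes of the ligands and of the chemokine gene Ccl5 in each group (horizontal axis); each point is 1 array, the bar is the group mean and the grey band is the range of the array medians. Il6ra and Il6st are lower in every mutant group than in its control, Ccr1 is higher in both GMP mutants, and Ccl5 is highest in fl/p30 cells of both stages.

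Of 9 genes of antagonists, decoys and processing enzymes, 2 rose in GMP fl/p30 (4.69% of all genes did), 0 passed in GMP fl/BRM2 (2.53%) and 1 rose in preGM fl/p30 (0.647%). Il1r2, the decoy receptor that traps IL-1, had 7.38, 7.39 and 7.82 in GMP fl/p30, against 6.76, 5.70 and 6.47 in GMP fl/+ (2.32-fold, adjusted p = 0.0301), a call lost in 5 of the 15 fits that leave out an array. Nlrc4, an inflammasome sensor gene, rose by 0.82 in GMP fl/p30 (adjusted p = 0.0249; lost without replicate 1 or 2 of that group, highest adjusted p 0.104) and by 1.13 in preGM fl/p30 (adjusted p = 0.00978; lost, at 0.0502, without preGM +/+ replicate 1). Casp1, whose protease matures IL-1β and IL-18, was high in all groups, with 9.66 ± 0.26 in GMP fl/p30 and 9.53 ± 0.09 in GMP fl/BRM2, against 9.55 ± 0.11 in GMP fl/+ (SD, n = 3 arrays), and did not pass. In GMP fl/BRM2 the largest differences in this list were -0.48 for Nlrp3, an inflammasome sensor, and 0.46 for Il1r2.

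Of 19 measured genes of signalling and feedback (Nfkb1 had no probe set of its own), 1 rose in GMP fl/p30, where 4.69% of all genes did, 0 passed in GMP fl/BRM2 (2.53%), and 1 rose and 1 fell in preGM fl/p30 (0.647% and 1.03%). The first of these shares is near that of all genes. Stat3, the transducer of IL-6 signals, had 9.77, 9.86 and 9.40 in GMP fl/p30 and 9.31, 9.47 and 9.48 in GMP fl/BRM2, against 8.97, 9.16 and 9.0 in GMP fl/+. All mutant arrays were above the control arrays, and the difference passed in fl/p30 (1.55-fold, 0.63 ± 0.13, adjusted p = 0.0113) and not in fl/BRM2 (0.38, adjusted p = 0.175). In fl/p30 leaving out replicate 1 or 2 of that group lost the call (highest adjusted p 0.063). Socs3, a feedback inhibitor that STAT3 induces, had 6.96, 6.63 and 6.56 in GMP fl/p30 and 6.98, 6.63 and 6.70 in GMP fl/BRM2, against 6.43, 6.71 and 6.66 in GMP fl/+, which overlap. In preGM fl/p30 against +/+ the arrays of Stat3 (0.48) and Socs3 (0.29) did not overlap, as for 25.1% of all genes. Neither passed in limma (adjusted p = 0.1015 and 0.3498). In preGM fl/p30 Bcl3, a nuclear IκB protein gene, rose 1.70-fold (adjusted p = 0.0325) and Irak3, an inhibitor of IL-1 receptor signalling, fell 1.72-fold (adjusted p = 0.0305), calls lost in 4 and 5 of the 15 fits that leave out an array. In GMP fl/BRM2 the largest differences in this list were 0.56 for Pim1 and 0.46 for Socs2.

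Over the 5 gene lists, the calls against the control numbered 14 for GMP fl/p30, 5 for GMP fl/BRM2 and 8 for preGM fl/p30. When only the 6 arrays of a comparison were fitted, 2 of the 14 stayed (Il7r and Ccl5) and 1 of the 5 (Ccr1), while none of the 8 was lost. Of 26 further cytokine genes measured (Thpo had no probe set of its own), 2 rose and 1 fell in GMP fl/p30 (4.69% and 1.37% of all genes), 1 rose and 1 fell in GMP fl/BRM2 (1.89% and 0.642%), and 0 passed in preGM fl/p30 (1.68%). Tnfsf10, the gene of the death ligand TRAIL, had 7.96, 7.66 and 7.46 in GMP fl/p30 and 6.75, 7.31 and 7.46 in GMP fl/BRM2, against 6.31, 4.88 and 5.59 in GMP fl/+ (2.10, adjusted p = 0.000886, and 1.58, adjusted p = 0.0116; the second was lost without GMP fl/BRM2 replicate 2 or 3, adjusted p up to 0.0738). Il12a, a subunit gene of IL-12, had 6.08, 6.06 and 6.50 in GMP fl/p30 and 6.41, 6.42 and 6.58 in GMP fl/BRM2, against 7.06, 8.14 and 8.37 in GMP fl/+. It fell by 1.64 in fl/p30 (adjusted p = 0.00863) and by 1.39 in fl/BRM2 (adjusted p = 0.0388, lost in 10 of the 15 fits that leave out an array), and as for Tslp its lower control array was replicate 1. Against that array alone neither call was made. Ltb, the lymphotoxin β gene, rose 1.76-fold in GMP fl/p30 (adjusted p = 0.0107; lost without GMP fl/p30 replicate 2 or GMP fl/+ replicate 3, highest adjusted p 0.0514).

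Of 23 further chemokine genes, 2 rose and 1 fell in GMP fl/p30 (4.69% and 1.37% of all genes), 0 passed in GMP fl/BRM2 (2.53%) and 1 rose in preGM fl/p30 (0.647%). Ccl5, the gene of RANTES, a lymphocyte chemokine that also binds CCR1 and lies beside Ccl9 on chromosome 11, had 9.55, 9.05 and 9.17 in GMP fl/p30 and 7.22, 7.77 and 8.08 in GMP fl/BRM2, against 6.72, 6.75 and 7.43 in GMP fl/+. It rose 4.89-fold in GMP fl/p30 (2.29 ± 0.27, adjusted p = 0.000189) and 2.87-fold in preGM fl/p30 (1.52, adjusted p = 0.0106; lost without preGM fl/p30 replicate 1 or preGM +/+ replicate 3, adjusted p up to 0.0618), and the difference of 0.72 in GMP fl/BRM2 did not pass (adjusted p = 0.206). Ccl6, on the other side of Ccl9, differed from its control by -0.39 (GMP fl/p30), 0.32 (GMP fl/BRM2) and -0.51 (preGM fl/p30), and Ccl3, next along, by -1.46, -0.85 and -1.48, none of which passed. Ccl9, Ccl5, Ccl6 and Ccl3 thus did not share one pattern over the groups. Xcl1, the lymphotactin gene, rose 1.89-fold in GMP fl/p30 (adjusted p = 0.00835), and Ccl12, dim throughout, fell by 0.46 (adjusted p = 0.0441, lost in 11 of the 15 fits that leave out an array and with the replicate number as a block). In GMP fl/BRM2 the largest differences in this list were 0.86 for Pf4, the platelet factor gene, and -0.85 for Ccl3. Of 7 measured genes of T cells and innate lymphoid cells, which also make CCL5 and XCL1 and which a Lin- gate is meant to leave out, 2 rose in GMP fl/p30, where 4.69% of all genes did (Rora by 2.17, and Cd3g, below the array medians, by 0.96), and Rora alone rose in GMP fl/BRM2 (1.89%). The mean of these 7 genes lay between 6.18 and 6.65 in GMP fl/p30 and 5.92 and 6.17 in GMP fl/BRM2, against 5.55 to 5.90 in GMP fl/+. In preGM fl/p30 0 of the 7 passed (1.68% of all genes), and their mean lay between 5.88 and 6.16, against 5.75 to 6.03 in preGM +/+. What part these genes have in the Ccl5 difference was not tested.

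The genes whose values over the 15 arrays ran closest to those of Il6, Tslp and Ccl9 were found by the root mean square difference of values centred on each gene's mean. Nearest to Il6 were Alox5, the 5-lipoxygenase of leukotriene synthesis (0.61), Cyp11a1, a steroid-making enzyme (0.73), St8sia6, a sialyltransferase (0.78), Cdh1, the E-cadherin gene (0.80), and Prkca, a protein kinase C isoform (0.89), where Il6 itself had a root mean square of 1.98. Alox5 averaged 10.2 (GMP fl/p30), 9.89 (GMP fl/BRM2), 8.08 (preGM fl/p30), 7.21 (GMP fl/+) and 6.47 (preGM +/+), the same order as Il6. Picking the nearest genes favours a like order. Cyp11a1 and Cdh1 had that order as well. St8sia6 and Prkca did not, with lower means in GMP fl/+ (5.48 and 6.04) than in preGM +/+ (5.99 and 6.67). Nearest to Tslp were Tcirg1, Taf1a, Snora74a, Rpl12 and Ikbke (0.41 to 0.48, where Tslp itself had 0.95). These include a small nucleolar RNA and a ribosomal protein gene. Nearest to Ccl9 were St8sia4, Acaca, H2-Oa, Hcfc1 and Slc2a3 (0.24 to 0.33, where Ccl9 itself had 0.48). The genes next to Il6 and Tslp on their chromosomes, namely Ube3c, Dnajb6 and Tyms for Il6 and Bin1, Gypc, Wdr36 and Camk4 for Tslp, did not pass in any of the 3 mutant comparisons.

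Markers of other cells that could lie in the gates were checked as well. Of 8 macrophage genes 0 passed in each of the 3 mutant comparisons, where 6.06% (GMP fl/p30), 2.53% (GMP fl/BRM2) and 1.68% (preGM fl/p30) of all genes did. The mean of these 8 lay between 6.13 and 6.93 in GMP fl/p30 and 6.35 and 6.65 in GMP fl/BRM2, against 6.20 to 6.70 in GMP fl/+. Of 5 B cell genes 0 passed in these comparisons, and at these shares a count of 0 among so few genes says little. On preGM +/+ replicate 3 the mean of these 5 was 8.59, against 6.49 and 6.83 on replicates 1 and 2, a spread that makes a call in preGMs harder. Of 8 genes of stroma and endothelium, Pecam1 and Pdgfrb rose in each GMP mutant (4.69% of all genes in fl/p30 and 1.89% in fl/BRM2), and 1 (Emcn) fell in preGM fl/p30 (1.03%). The mean of these 8 lay between 6.17 and 6.4 in GMP fl/p30 and 6.12 and 6.33 in GMP fl/BRM2, against 5.87 to 5.97 in GMP fl/+. Of 7 late neutrophil genes, 4 fell in GMP fl/p30 (1.37% of all genes), 1 fell in GMP fl/BRM2 (0.642%) and 3 fell in preGM fl/p30 (1.03%). What part these shifts have in the ligand values was not tested.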

How the data were processed

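The authors deposited log2 expression values for 15 arrays; per the submitters' processing notes affy and RMA made them, with versions not given in the sources used here. RMA corrects background, gives arrays common quantiles and summarises probes, which compresses differences of dim genes. Arrays have no read depth, and 3 per group limit the precision. Of 34760 probe sets, 21640 had 1 gene symbol in the platform annotation, 1321 several and 11799 none; 21553 of the first matched the RefSeq gene table. The 19937 genes were represented by their probe set, or the one with the highest mean over all arrays. limma 3.58.1 in R 4.3.3 fitted 5 group means to the 15 arrays (lmFit and eBayes, with 10 residual and 4.24 prior degrees of freedom), with Benjamini-Hochberg adjustment over all genes within each of 7 comparisons; a gene passed at an adjusted p under 0.05. It was tested on simulated data. ± is the standard error unless SD is stated. Differences are log2, the group named first minus the other.

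The members and lists were chosen with earlier results of these data known. Of each list, the genes named are those that passed in a mutant against control comparison, up to 6 by size, or up to 2 by size where none passed; a few more (Casp1, Crlf2, Socs3, Ccl3, Ccl6, Mcpt8, chromosomal neighbours) were named after their values were seen. Within-group spread (root mean square SD) was 0.269 in GMP fl/p30, 0.195 in GMP fl/BRM2, 0.319 in GMP fl/+, 0.211 in preGM fl/p30 and 0.165 in preGM +/+, so the shared estimate favours calls against GMP fl/+. The fl/p30 stages are paired by mouse: residuals of the same mouse correlated at 0.334, 0.320 and 0.116 across genes, although for the last of them another mouse gave 0.154.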

Additional observations from a re-analysis of the deposited data

Results flagged for a closer look

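The p30 difference of Ccl9 had opposite signs at the 2 stages, judged by control means: every fl/p30 GMP array was above the mean of GMP fl/+ and every fl/p30 preGM array below the mean of preGM +/+, and the 2 differences (0.32 and -1.07) were apart by 1.39 (log2). The GMP direction is weakly held: 2 of the 3 fl/p30 arrays were below GMP fl/+ replicate 1, and against that array alone the difference was 0.02. The gap was not tested, because the gene was chosen for its changes, and the controls of the 2 stages also differ in genotype. Il1b likewise lay below the control mean on every fl/p30 GMP array and above it on every fl/p30 preGM array, with differences of -0.39 and 0.02 that were apart by -0.41; limma's test of that gap gave an adjusted p of 0.425, so it did not pass, and the preGM difference is small beside its standard error of 0.15.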

How the results depend on the processing

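The counts of tested genes that passed were 0 in each of the 7 comparisons, and the alternatives were leaving out each array, the mean of all probe sets, dim genes left out (11700 genes and 5 of the 9 ligands stay), arrays shifted to a common median, a further quantile normalization, eBayes with trend and robust, array weights, the replicate block, only the groups compared, and a minimum log2 difference of 1. Without single arrays the counts ran from 0 to 2 in GMP fl/p30 against GMP fl/+, 0 to 1 in GMP fl/BRM2 against GMP fl/+ and 0 to 2 in GMP fl/+ against preGM +/+; each highest value came without GMP fl/+ replicate 1. With array weights they were 1, 0 and 2 in those comparisons and 1 in GMP fl/p30 against GMP fl/BRM2 (Ccl9, chosen for its changes and so no test), a setting that raises the calls over all genes as well; the cause was not tested. With the replicate block, and with the mouse as a block in the 6 fl/p30 arrays, the count stayed 0 in each comparison it could be run in, while over all genes the fl/p30 stage step had 71 calls with the mouse as a block against 128 without. Il6 kept its sign against both controls in all settings (3.84 to 4.82 in GMP fl/p30 without single arrays). With GMP fl/+ replicate 1 as the only GMP control, a setting added after seeing the data, Ccl9 in GMP fl/p30 was at 0.02, and over all genes 311 passed in GMP fl/p30 and 113 in GMP fl/BRM2, against 1209 and 505; fewer samples enter that fit. Of the 14 list calls in GMP fl/p30, 9 were lost in that setting, and all 5 in GMP fl/BRM2.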

Other observations

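Between the stages, list genes that were not described above differed as well. In the controls the stages also differ in genotype (fl/+ and +/+), which cannot be told apart from stage. In fl/p30 mice Il18r1 fell by 1.62 in GMPs against preGMs (adjusted p = 0.00936) and Il1r2 rose by 1.51 (adjusted p = 0.0395), while Il12a fell by 1.59 (adjusted p = 0.0426) and Irak3 rose by 0.89 (adjusted p = 0.0228); with the mouse as a block the last pair did not pass. In control GMPs against control preGMs Il7r fell by 2.24, Il18r1 fell by 1.95, Tnfsf10 fell by 1.92, Ccl5 fell by 1.12 and Adam17, whose protease sheds TNF, fell by 1.05, and Il18bp, which encodes the IL-18 binding protein, rose by 0.52 and Ccl24 by 0.72 (all with an adjusted p under 0.05). Of the 15 fits that leave out an array, the call was lost in 9 for Il18bp, 4 for Ccl24, 3 for Ccl5 and 1 for Adam17; in fl/p30 mice it was lost in 11 for Il12a, 8 for Il1r2, 5 for Irak3 and 1 for Il18r1. Of the preGM +/+ arrays, replicate 3 had the highest Il7r value (7.93, against 6.72 and 6.54), and on that array the mean of 5 B cell genes was 8.59, against 6.49 and 6.83 on the others.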
